A study of Homo sapiens with 4 samples.

Results

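H3K27Ac was profiled in MOLM13, an established line of human AML cells that carries MLL1-r. The mark is an acetyl group on a lysine of histone H3 and is found at active promoters and enhancers. One library came from control cells (treatment given as none in the labels, with a DMSO arm named in the treatment description) and 1 library from cells exposed to 500 nM of SNDX-50469, a Menin inhibitor, for 16 h. Both were prepared by ChIPmentation, where a transposase adds the sequencing adapters to chromatin bound by the antibody, and the 2 matching input libraries were not used here. The replication-dependent histone genes on chromosome 6 described below are the protein-coding genes of that chromosome whose symbols begin with H1-, H2AC, H2BC, H3C or H4C. There were 55 of them among 20033 protein-coding genes (GRCh38.p14, the build of hg38), namely 6 genes for H1, 12 for H2A, 15 for H2B, 10 for H3 and 12 for H4.

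H1 is the linker histone, and H2A, H2B, H3 and H4 form the core of the nucleosome. Their replication-dependent genes are short, lack introns and are transcribed mainly while a cell copies its DNA. Their mRNAs end in a stem-loop that is bound by SLBP, in place of a poly(A) tail, and many H2A and H2B genes lie head to head and share 1 promoter. NPAT, a coactivator that is phosphorylated by cyclin E with CDK2, gathers at the clustered genes in the histone locus body. H1-6, H2AC1 and H2BC1 are known as testis genes.

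Each library has its own list of broad peaks, and the value used throughout is the length covered by peaks, either over a gene with 1 kb on both sides (its window) or over a longer stretch. Its kept share is how much of the control covered length, in percent, the SNDX-50469 list covers too. Neighbouring windows overlap and several genes can lie under 1 peak, so the members are not independent of each other. The control list held 245875 peaks covering 224 Mb, and the SNDX-50469 list held 54061 peaks covering 29.4 Mb. Sequencing depth is unknown, because neither list holds read totals. Each condition has a single library, so that no difference could be set against replicates and no test was made. Of the markers chosen to check the cell type, 9 of 9 myeloid genes had a peak in both lists, while among 8 genes of other cell types 5 had a control peak and 2 an SNDX-50469 peak, with ALB, HBB and KRT5 free of peaks in either list. In control the windows of the myeloid genes were covered over 72.3% and those of the other cell types over 7.05%.

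Promoter sequences of 7 histone genes are printed because their coverage falls into 4 different patterns. They are RefSeq sequences (GRCh38.p14) on the strand of the gene, from 250 bases before the start of the transcript to 50 bases after it. Capitals mark 3 motifs searched on both strands, namely the TATA box (TATAAA), the CCAAT box (CCAAT) and the octamer (ATTTGCAT). Matches next to each other or overlapping give 1 run of capitals. The first pair, H2AC11 (chr6:27132793-27133092, plus strand) and H2AC17 (chr6:27893136-27893435, minus strand), was not covered in control and was covered whole after SNDX-50469.
H2AC11: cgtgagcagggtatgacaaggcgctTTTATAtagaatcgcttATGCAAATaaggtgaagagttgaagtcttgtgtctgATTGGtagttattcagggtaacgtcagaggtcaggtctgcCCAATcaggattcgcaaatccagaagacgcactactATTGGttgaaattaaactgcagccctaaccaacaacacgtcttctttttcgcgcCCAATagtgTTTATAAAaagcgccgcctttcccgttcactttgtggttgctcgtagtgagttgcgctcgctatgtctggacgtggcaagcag
H2AC17: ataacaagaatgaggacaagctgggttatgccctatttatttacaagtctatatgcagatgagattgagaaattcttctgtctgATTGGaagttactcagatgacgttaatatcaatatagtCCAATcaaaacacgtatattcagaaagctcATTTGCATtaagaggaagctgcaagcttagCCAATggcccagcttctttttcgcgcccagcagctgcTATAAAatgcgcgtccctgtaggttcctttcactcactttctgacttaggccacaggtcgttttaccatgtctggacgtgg
H2BC15 (chr6:27838319-27838618, plus strand) and H4C13 (chr6:27873485-27873784, minus strand) were covered over all 300 bases in both lists.
H2BC15: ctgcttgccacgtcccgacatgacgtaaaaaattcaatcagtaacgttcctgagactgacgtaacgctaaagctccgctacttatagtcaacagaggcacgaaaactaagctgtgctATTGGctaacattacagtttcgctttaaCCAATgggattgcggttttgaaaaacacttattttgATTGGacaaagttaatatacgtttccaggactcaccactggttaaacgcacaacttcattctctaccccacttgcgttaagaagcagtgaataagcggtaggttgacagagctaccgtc
H4C13: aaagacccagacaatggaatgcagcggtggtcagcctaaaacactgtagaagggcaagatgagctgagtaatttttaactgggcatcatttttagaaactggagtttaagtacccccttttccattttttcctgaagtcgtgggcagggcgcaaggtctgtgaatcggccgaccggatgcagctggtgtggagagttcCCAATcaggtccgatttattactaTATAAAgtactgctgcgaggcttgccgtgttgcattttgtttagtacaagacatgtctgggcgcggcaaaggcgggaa
H4C11 (chr6:27823842-27824141, plus strand) and H4C12 (chr6:27831511-27831810, minus strand) were the most alike of the H4 promoters, with the same base at 295 of 300 positions. Of the H4C11 promoter, 27.7% was covered in control and 4.33% after SNDX-50469. Of the H4C12 promoter, 5.00% and 4.00% were covered.
H4C11: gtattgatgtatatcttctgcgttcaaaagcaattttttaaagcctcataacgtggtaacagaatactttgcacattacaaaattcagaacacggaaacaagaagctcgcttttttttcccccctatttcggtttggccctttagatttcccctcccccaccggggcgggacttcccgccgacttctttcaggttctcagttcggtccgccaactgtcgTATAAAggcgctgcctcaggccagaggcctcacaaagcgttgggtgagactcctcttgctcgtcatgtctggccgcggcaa
H4C12: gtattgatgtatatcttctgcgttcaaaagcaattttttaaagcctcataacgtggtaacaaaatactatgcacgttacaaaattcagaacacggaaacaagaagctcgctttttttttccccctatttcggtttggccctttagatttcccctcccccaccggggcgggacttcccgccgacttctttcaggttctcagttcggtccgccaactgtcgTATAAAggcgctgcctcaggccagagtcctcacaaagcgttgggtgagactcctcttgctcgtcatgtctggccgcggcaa
The promoter of the testis gene H2BC1 (chr6:25726527-25726826, plus strand) was not covered in either list, although all 3 motifs occur in it.
H2BC1: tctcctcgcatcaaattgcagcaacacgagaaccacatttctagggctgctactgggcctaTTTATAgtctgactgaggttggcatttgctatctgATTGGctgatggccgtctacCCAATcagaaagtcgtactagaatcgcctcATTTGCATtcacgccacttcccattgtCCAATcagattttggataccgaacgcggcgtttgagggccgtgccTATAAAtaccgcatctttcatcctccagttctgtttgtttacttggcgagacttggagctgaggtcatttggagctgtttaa

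Promoter sequences were found for 50 of the 55 genes, and H4C1, H4C3, H2AC12, H3C11 and H3C12 had none. At least 1 promoter of 34 of the 50 genes held the TATA box letters (68.0%, against 14.0% of 27305 genes with a promoter of the same length). The CCAAT letters were found in 43 (86.0% against 39.7%). All H1, H2A, H2B and H3 genes with a promoter had CCAAT, whereas only 3 of 10 H4 genes did. The octamer, which is known from H2B promoters, was found in 22 (44.0% against 2.19%), made up of 9 of 11 H2A genes, 12 of 15 H2B genes, 0 of 6 H1 genes, 0 of 10 H4 genes and 1 of 8 H3 genes. That H3 gene was H3C4, through a start site it shares with H2AC7. These matches describe the letters of the window and not the binding of a factor. Of the 50 promoters, taking the first listed for each gene, 28 were covered whole in control, 29 after SNDX-50469 and 22 in both. No base was covered in 10 in control, in 12 after SNDX-50469 and in 5 in both. Coverage was not counted over the promoters of all genes, so no share stands beside these counts.

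In control cells most of the length at the histone genes carried H3K27Ac, and most of that coverage was present after SNDX-50469 as well. A control peak lay in the window of 51 of the 55 genes, against 75.1% of all protein-coding genes, and an SNDX-50469 peak in 49, against 47.8%. Peaks covered 81.1% of the windows in control and 62.5% after SNDX-50469, each base counted once. The kept share was 73.3%, whereas it was 10.7% over the windows of all protein-coding genes and 10.6% over the other 994 genes of chromosome 6. Gene length bears on this comparison, because only 5 of the 55 annotated genes are over 2 kb (H2BC4, H2BC5, H2BC12, H3C4 and H3C6). The 50 shorter ones had a kept share of 84.4%, and the other 1207 protein-coding genes of at most 2 kb had 26.1%.

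For single genes, the median share of the window covered was 87.4% in control and 90.7% after SNDX-50469, against 7.16% and 0% over all protein-coding genes. The window was covered from end to end in 24 histone genes in control, in 23 after SNDX-50469 and in 19 in both. Over all 20033 protein-coding genes these counts were 204, 39 and 32. Of the 51 histone genes with a control peak, the covered length after SNDX-50469 was shorter in 21, equal in 19 and longer in 11. Among all 15040 genes with a control peak it was shorter in 97.9%. At least 50% of the control covered length was kept in 41 of the 51 histone genes, against 4.94% of all genes with a control peak. The plot of each gene in order along the chromosome shows that the losses were not spread evenly, and that they lay mainly in the second of 4 subclusters.

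**Figure D1:**
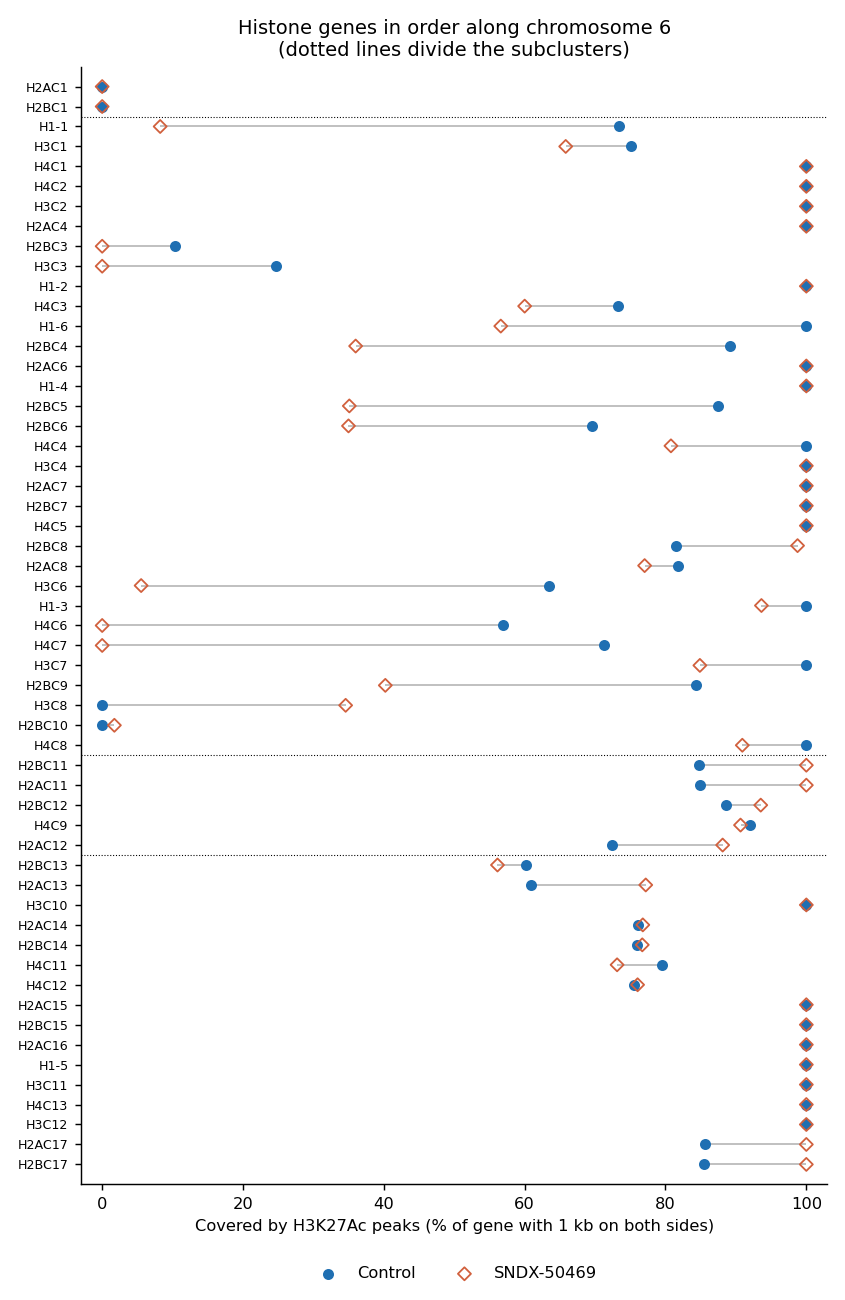
Each row is 1 of the 55 histone genes in order along chromosome 6, and the horizontal axis is the percent of its window (the gene with 1 kb on both sides) covered by H3K27Ac peaks, in control (filled circles) and after SNDX-50469 (open diamonds), 1 library each. The circles and diamonds coincide at 100% for 19 genes, and the longest lines to the left lie in the second subcluster, from H1-1 (73.4% to 8.24%) to H4C7 (71.3% to 0%).

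Dividing the genes wherever neighbours lie more than 100 kb apart gave 4 subclusters over a span of 2170 kb. Subcluster 1 (chr6:25725063-25728345) held only H2AC1 and H2BC1 and had no peak in either list. Subcluster 2 (chr6:26016032-26286534) was the largest, with 32 genes from H1-1 to H4C8, subcluster 3 (chr6:27131316-27148562) held 5 genes from H2BC11 to H2AC12, and subcluster 4 (chr6:27806479-27894891) held 16 genes from H2BC13 to H2BC17. Each stretch includes 1 kb beyond its outer genes.

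Coverage differed among the subclusters more after SNDX-50469 than in control. Subcluster 2 was covered over 61.8% of its length in control and 29.1% after SNDX-50469, with a kept share of 44.0%. Subcluster 3 was covered over 90.8% and 94.3%, with a kept share of 97.2%. Subcluster 4 was covered over 76.7% and 61.9%, with a kept share of 79.5%. Subcluster 3 was thus the only one whose covered length was longer after SNDX-50469, at 104% of the control length, while subcluster 2 stood at 47.0% and subcluster 4 at 80.8%.

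The gaps between the subclusters had less coverage than subclusters 2, 3 and 4 in both lists. The first gap, of 288 kb, was covered over 10.1% in control and 0.931% after SNDX-50469. The second, of 845 kb, was covered over 14.6% and 2.41%, and the third, of 658 kb, over 6.46% and 1.11%. Their kept shares of 6.74%, 13.2% and 9.36% lay around that of chromosome 6 as a whole (10.4%). Over all 4 subclusters 66.0% was covered in control and 39.4% after SNDX-50469, whereas over the 3 gaps it was 10.9% and 1.70%. The windows of all protein-coding genes were covered over 10.6% in control and 1.41% after SNDX-50469. Because the control list covers far more of the genome, the control list was also limited to its strongest peaks by −log10 p until it covered the same length as the SNDX-50469 list. At this equal length the subclusters were covered over 40.6% in control and 39.4% after SNDX-50469, and the gaps over 0.797% and 1.70%.

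**Figure D2:**
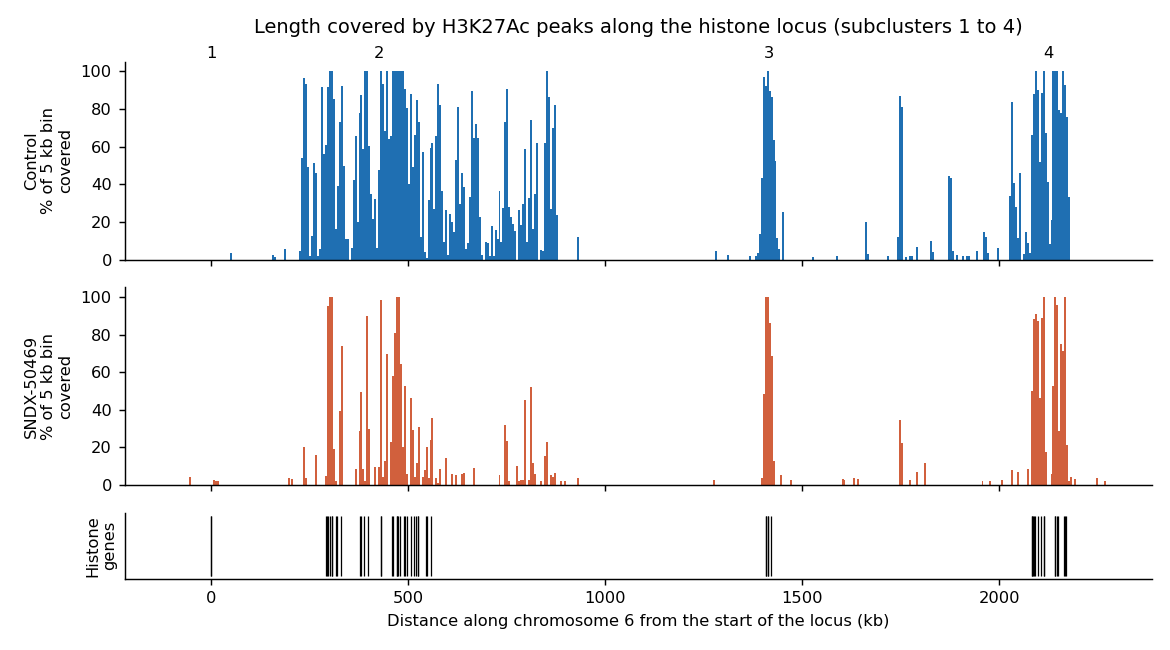
The vertical axes give the percent of each 5 kb bin covered by H3K27Ac peaks in control (upper panel) and after SNDX-50469 (middle panel), against the distance in kb along chromosome 6. Black lines in the lower panel mark the histone genes, and the numbers 1 to 4 mark the subclusters; after SNDX-50469 the tallest bars stand over the genes of subclusters 2, 3 and 4, and the gaps, covered over 10.9% in control, drop to 1.70%.

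**Figure D3:**
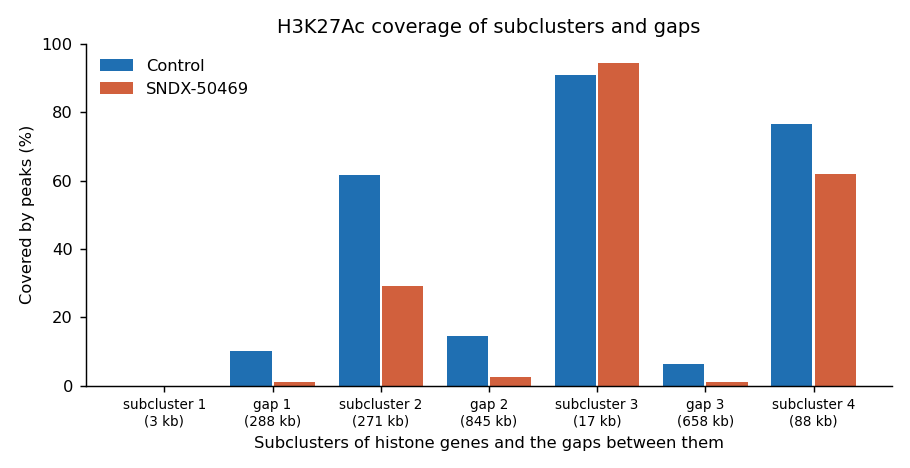
Bars give the percent of each subcluster and each gap covered by H3K27Ac peaks in control and after SNDX-50469, 1 library each, in order along chromosome 6 with the length in kb below. Both bars of subcluster 3 stand above 90%, subcluster 2 goes from 61.8% to 29.1%, no gap exceeds 14.6% in control, and subcluster 1 has no coverage.

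In subclusters 2 and 4 the kept share was larger in the windows of the genes than between them. In subcluster 2 the windows of the genes were covered over 80.0% in control and 51.2% after SNDX-50469, with a kept share of 60.9%, and the stretches between the windows over 51.9% and 17.0%, with a kept share of 29.9%. In subcluster 4 the windows were covered over 89.9% and 90.4%, with a kept share of 97.4%, and the stretches between them over 69.9% and 47.5%, with a kept share of 67.7%. The gene windows of subcluster 4 were thus covered to nearly the same length in both lists, and the length missing after SNDX-50469 came from between the windows. In subcluster 3 the windows had a kept share of 96.6%, and the 2757 bp between them were covered throughout in both lists.

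Other protein-coding genes that lie in the same span, among the histone genes and in the gaps, kept less. There are 19 of them, including butyrophilin genes and zinc finger genes, of which 17 had a control peak and 11 an SNDX-50469 peak, and their kept share was 11.9%. HMGN4, a nucleosome-binding protein, had the highest, at 51.6%, followed by ZNF322 at 30.1% and ZNF184 at 27.4%. BTN3A1 (27.9% of its window covered in control) and BTN3A3 (12.5%) had no SNDX-50469 peak, and neither had SLC17A4, where 0.597% was covered in control. SLC17A3 had no peak in either list, and SLC17A2 had only an SNDX-50469 peak over 0.908% of its window. These genes are longer than the histone genes, and within 2.5 kb around their 5′ ends their kept share was 30.5%.

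Among the 6 genes for the linker histone H1, all had a peak in both lists. H1-2, H1-4 and H1-5 were covered over 100% of the window in both, and H1-3 went from 100% to 93.6%. The peak over H1-2 had the highest authors' fold over background of any SNDX-50469 peak at these genes (8.45, rank 75 of the 54061 peaks of that list). Folds and ranks place a peak within its own list and are not compared between the lists, since the fold is taken over the background of that library alone. H1-1, the first gene of subcluster 2, was covered over 73.4% in control and 8.24% after SNDX-50469, where 227 bp were covered. The testis gene H1-6, which lies beside H4C3 in subcluster 2, was covered whole in control and over 56.6% after SNDX-50469. Its 300 base promoter was covered whole in control and over no base after SNDX-50469, as was that of H1-1.

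The 12 genes for H2A had the highest kept share of the 5 types, 96.2%. Their windows were covered over 80.2% in control and 84.9% after SNDX-50469, and the number covered from end to end was 5 in control and 7 after SNDX-50469. H2AC4, H2AC6, H2AC7, H2AC15 and H2AC16 were covered whole in both lists. Longer coverage after SNDX-50469 was seen at 5 genes. H2AC11 went from 84.9% to 100%, H2AC17 from 85.6% to 100%, H2AC12 from 72.4% to 88.1%, H2AC13 from 60.9% to 77.2% and H2AC14 from 76.0% to 76.8%. H2AC8, at 81.8% and 77.0%, was the only H2A gene with a shorter covered length, and the testis gene H2AC1 had no peak.

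The 15 genes for H2B had the lowest kept share, 65.6%, with 77.1% of their windows covered in control and 54.7% after SNDX-50469. The long annotated spans of 3 of them weigh on this value. H2BC4, of 10757 bp, was covered over 89.2% in control and 36.0% after SNDX-50469, H2BC5, of 13229 bp, over 87.4% and 35.1%, and H2BC12, of 8566 bp, over 88.5% and 93.5%. Around the 5′ ends of H2BC4 and H2BC5 the 2.5 kb window was covered whole in both lists, so the missing length lay farther along the annotated gene. H2BC7 and H2BC15 were covered whole in both lists, and H2BC11 and H2BC17 were covered over 84.8% and 85.5% in control and whole after SNDX-50469. H2BC8 went from 81.6% to 98.8%, while H2BC13 (60.2% and 56.1%) and H2BC14 (76.0% and 76.7%) stood at nearly the same value in both.

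The remaining 5 H2B genes had at most 40.2% of the window covered after SNDX-50469. H2BC6 was covered over 69.5% in control and 35.0% after SNDX-50469, and H2BC9 over 84.3% and 40.2%. H2BC3 was covered over 10.3% in control, by a single peak of 257 bp, and had no SNDX-50469 peak. H2BC10 had no control peak, and after SNDX-50469 only 43 bp at the edge of its window were covered. The testis gene H2BC1, in subcluster 1, had no peak in either list.

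Of the 10 genes for H3, 5 were covered whole in both lists, namely H3C2, H3C4, H3C10, H3C11 and H3C12. The kept share of the type was 80.5%, with 76.7% of the windows covered in control and 65.2% after SNDX-50469. H3C7 went from 100% to 84.9% and H3C1 from 75.0% to 65.8%. H3C6, annotated over 3296 bp, was covered over 63.4% in control and 5.53% after SNDX-50469. H3C3, the neighbour of H2BC3, was covered over 24.7% in control and had no SNDX-50469 peak. H3C8 was the reverse, with no control peak and 34.6% of its window covered after SNDX-50469 by a peak of 1106 bp with a fold of 4.02, which began past the 3′ end of the gene.

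The 12 genes for H4 all had a control peak, and 10 had an SNDX-50469 peak. Their windows were covered over 87.4% and 72.6%, with a kept share of 81.6%. H4C1, H4C2, H4C5 and H4C13 were covered whole in both lists, and H4C8, the last gene of subcluster 2, went from 100% to 90.9%, H4C4 from 100% to 80.8% and H4C9 from 92.0% to 90.7%. H4C6 (56.9% in control) and H4C7 (71.3%) had no SNDX-50469 peak, and H4C3 was covered over 73.3% and 60.0%. H4C7 lies beside H3C7, which kept 84.9% of its control coverage. H4C12 was the only H4 gene with a longer covered length after SNDX-50469, at 75.5% and 76.0%, and H4C11 was covered over 79.5% and 73.1%. The strongest control peak in the H4C12 window had a fold of 11.3 and rank 127 of the 245875 control peaks, the best rank of any control peak at these genes.

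Head-to-head H2A and H2B genes differed between the lists in the short stretch between their 5′ ends. There are 10 such pairs, with 5′ ends 194 to 248 bp apart. In control a peak reached into this stretch in 4 pairs and covered it whole in 3, whereas after SNDX-50469 a peak reached into it in 9 pairs and covered it whole in 7. The whole stretch was covered in both lists at H2BC4/H2AC6, H2AC7/H2BC7 and H2AC15/H2BC15. At 4 pairs (H2BC8/H2AC8, H2BC11/H2AC11, H2BC12/H2AC12 and H2AC17/H2BC17) the stretch was uncovered in control and covered whole after SNDX-50469. At these 4 pairs the control list had 1 peak on each side of an uncovered stretch of 459, 377, 679 and 358 bp, and the SNDX-50469 list had 1 peak running across it. This includes the promoters of H2AC11 and H2AC17 printed above.

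The other pairs stayed partly or wholly open. At H2BC13/H2AC13 none of the stretch was covered in control and 17.1% after SNDX-50469, and the uncovered stretch there was 975 bp long in control and 569 bp after SNDX-50469. At H2AC14/H2BC14 the covered part was 8.94% in control and 28.9% after SNDX-50469, with an uncovered stretch of 593 and 575 bp. H2AC1/H2BC1, the testis pair, had no coverage. H3C7 and H2BC9 also lie head to head, 979 bp apart, and the stretch between them was covered over 100% in control and 98.9% after SNDX-50469.

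At the first base of the gene, 33 of the 55 genes were covered in control and 38 after SNDX-50469. The genes in the 10 pairs and the others differed in direction. Of the 20 genes in pairs, 7 were covered at this base in control and 16 after SNDX-50469, among them all 7. Of the other 35 genes, 26 were covered in control and 22 after SNDX-50469. By type the counts were 6 and 4 of 6 H1 genes, 5 and 10 of 12 H2A genes, 7 and 9 of 15 H2B genes, 7 and 7 of 10 H3 genes and 8 and 8 of 12 H4 genes. Farther from the start the order of the lists turned. At 600 bp after the first base, past the 3′ end of most of these short genes, 89.1% were covered in control and 78.2% after SNDX-50469. At 3 kb before the first base 80.0% and 49.1% of the histone genes were covered. Other protein-coding genes were covered at their first base in 38.9% in control and 17.1% after SNDX-50469.

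**Figure D4:**
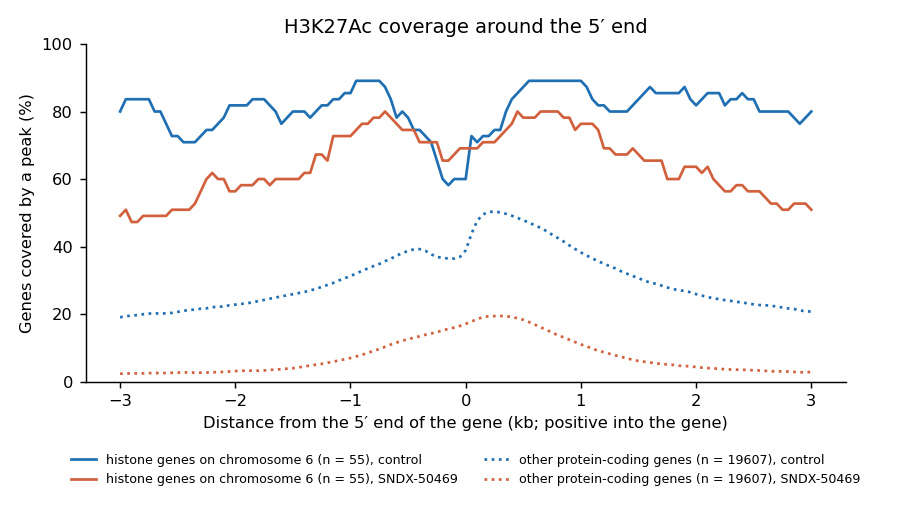
The vertical axis is the percent of genes covered by an H3K27Ac peak at each distance in kb from the 5′ end, for the 55 histone genes (solid lines) and 19607 other protein-coding genes (dotted lines), in control and after SNDX-50469. The control line of the histone genes dips to 58.2% at 150 bp before the start, where it lies below the SNDX-50469 line. It reaches 89.1% at 600 bp after the start, which is past the 3′ end of most of these genes.

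Because peaks of other genes concentrate at their 5′ ends, the 2.5 kb around the 5′ end gave a closer comparison. In these windows 25 of the 55 histone genes were covered whole in control, against 12.5% of all genes with a known strand. After SNDX-50469, 26 histone genes were covered whole, against 335 of the 19662 genes with a known strand. The kept share was 83.4% over the histone genes, 39.3% over other genes of chromosome 6 and 31.0% over all other genes. With the control list trimmed to the covered length of the SNDX-50469 list, an alternative chosen after seeing the data for this window, it was 97.8% over the histone genes and 66.6% over all other genes. At least 50% of the control length was kept in 44 of 51 histone genes, against 23.8% of all genes with a control peak in this window.

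At each level of control coverage from 50% up, the histone genes kept a larger share than the other genes. For these groups the lengths were summed over genes, so bases in overlapping windows were counted more than once. The kept shares given above count each base once. For windows covered whole in control, the kept share was 96.8% over 25 histone genes, 55.0% over 198 other genes of chromosome 6 and 49.1% over 2435 other genes. For windows covered from 75% up to less than 100% it was 76.5% over 17 histone genes and 32.9% over 3084 others, and from 50% up to less than 75% it was 78.3% over 6 histone genes and 20.1% over 2574 others. Only 3 histone genes with a control peak were covered over less than 50%, and they kept none. Genes were also grouped by the fold of the strongest control peak in the window. With a fold of 9 or more the kept share was 97.5% over 12 histone genes and 75.3% over 311 others, and with a fold from 7 to 9 it was 95.3% over 25 and 65.4% over 1005. With a fold from 5 to 7 it was 76.1% over 8 and 44.0% over 3732. Below a fold of 5 it was 23.2% over 6 histone genes and 10.8% over 6853 others. In this grouping the kept share was smaller where the control peak was weaker, for the histone genes and for the others.

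**Figure D5:**
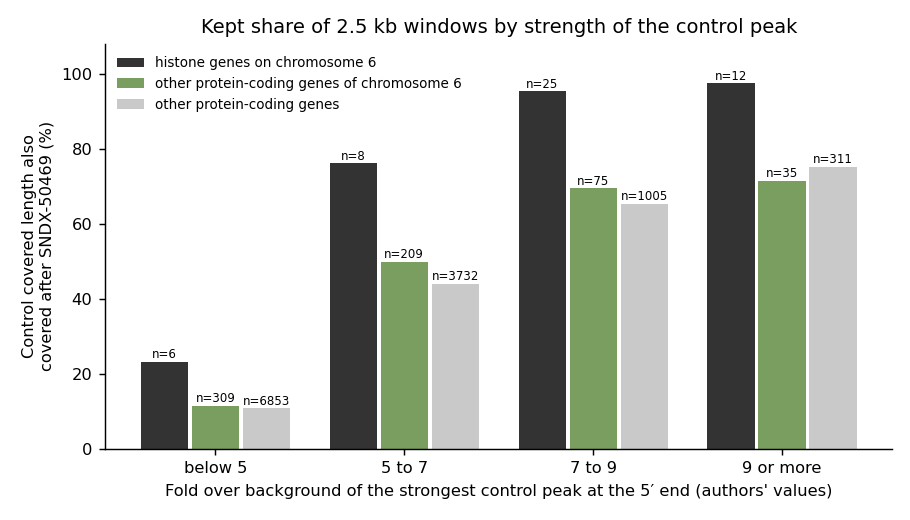
Bars give the share of the control covered length that was also covered after SNDX-50469, in percent, within 2.5 kb around the 5′ end, for genes grouped by the authors' fold of the strongest control peak there, with the number of genes above each bar. In each group the bar of the histone genes stands highest, from 23.2% below a fold of 5 to 97.5% at 9 or more. Lengths were summed over genes, so bases in overlapping windows were counted more than once.

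The peaks behind these values were wide and ranked high in both lists. The gene windows held 43 control peaks with a median width of 3359 bp, against 340 bp over the whole list, and 38 SNDX-50469 peaks with a median width of 2248 bp, against 295 bp. A −log10 q of at least 5 was reached by 23 of the 43 control peaks (53.5%, against 3.77% of the list) and by 18 of the 38 SNDX-50469 peaks (47.4%, against 1.74%). These widths and shares stand beside the whole lists, which include peaks away from genes. Peaks at the windows of other genes were not measured in this way. Within each list, 19662 genes, 55 of them these histone genes, were ordered by the fold of the strongest peak around the 5′ end. In control 4 histone genes were among the first 200 and 19 among the first 500. After SNDX-50469 there were 13 and 37, which are ranks within that list and not compared with control. Shared peaks raise such counts, since 18 control peaks and 14 SNDX-50469 peaks each lay over several histone genes.

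The widest peaks spanned runs of neighbouring genes. A control peak of 32225 bp in subcluster 2 reached the windows of 8 genes, from H2BC6 to H2AC8. After SNDX-50469 the middle of this run lay under a peak of 15117 bp over H3C4, H2AC7, H2BC7 and H4C5, and the ends held separate shorter peaks. A control peak of 18260 bp and an SNDX-50469 peak of 15296 bp both lay over H3C1, H4C1, H4C2, H3C2 and H2AC4. In subcluster 4 a control peak of 18587 bp and an SNDX-50469 peak of 11871 bp both lay over H2AC16, H1-5, H3C11 and H4C13. Peaks met in only 1 list had low folds beside the medians of 5.20 in control and 5.06 after SNDX-50469 over all peaks at these genes. The 11 control peaks that shared no base with the SNDX-50469 list had folds from 2.66 to 3.68, and the 3 SNDX-50469 peaks that shared none with the control list, at H2BC4, H3C8 and H2BC10, had folds of 3.57, 4.02 and 3.54.

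Replication-dependent histone genes on other chromosomes gave a mixed picture beside those on chromosome 6. Of 15 such genes 10 had a control peak and 9 an SNDX-50469 peak, with a kept share of 42.1%. In the 2.5 kb around the 5′ end their kept share was 58.2%, against 83.4% at the histone genes of chromosome 6. H2AC20 went from 44.1% of its window covered to 100% and H2AC21 from 52.1% to 100%, under a peak they share with H2BC21 (72.6% and 65.5%). H2AC19 kept 90.9% of a short covered length, 10.5% of its window. H4C16, at 91.3% and 13.8%, and H2BC26, at 29.6% and 20.0%, kept 15.1% and 18.5%, and H2BC18, with 0.357% covered in control, kept none. H3C13, H4C14, H3C14, H3C15 and H2BC12L had no peak in either list. Shared sequence was not examined for these 15 genes, so the part of reads that match several genes in these values, or in missing peaks, is unknown.

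The 9 replication-independent histone genes, which are used outside DNA replication too, had a kept share of 15.8%, and of 57.1% in the 2.5 kb around the 5′ end. H3-3A, for the replacement histone H3.3, kept 92.6%, H1-10 kept 37.8% and H2AX kept 32.2%. H3-3B kept 17.4% and MACROH2A1 kept 7.90%, while MACROH2A2 had no peak in either list. Genes for the synthesis and processing of histone mRNA were chosen as a group of 20, and all 20 had a control peak, 16 had an SNDX-50469 peak and all 20 had a shorter covered length after SNDX-50469. Their kept share was 14.7%, and 48.1% in the 2.5 kb around the 5′ end, against 83.4% at the histone genes of chromosome 6. CCNE2, for cyclin E2, kept 43.8%, NFYB, a subunit of the factor that binds CCAAT, kept 32.6%, and YY1 kept 31.7%. CDK2 (73.4% of its window covered in control), HINFP, a factor of H4 promoters (14.1%), and LSM11, of the U7 particle that processes the mRNA (3.79%), had no SNDX-50469 peak.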

How the data were processed

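H3K27Ac was measured by ChIPmentation in 1 control library and 1 library of MOLM13 cells treated with SNDX-50469 (500 nM, 16 h). Per the submitters' processing notes, Trim Galore 0.6.5, Bowtie2 2.3.4.2, Picard 2.9.0 and MACS2 2.1.2 were used with GRCh38, whereas the supplementary methods name TopHat2 for mapping to hg38. The calling options, the treatment of reads with several matches and the use of the inputs are not given in the sources used here. The lists of broad peaks were deposited by the authors, 1 for each library, called without pooling. For each peak the deposited values are a ratio (fold over background), the −log10 p, the −log10 q and a score, which was not used. They are relative to the background of their own library and the values of single peaks were not compared between lists. The labels give a treatment of none for the control and name a DMSO arm elsewhere.

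Gene positions and 300 base promoters came from RefSeq tables of GRCh38.p14. The strand came from the promoter table for 50 of the 55 genes and, by symbol, from GENCODE for 5, and no coordinate of an older build was used. Overlapping lengths were computed with Python 3.11.15, numpy 2.4.6 and pandas 2.3.3, and the functions were tested on simulated peaks. Windows were the gene with 1 kb on both sides. Subclusters were divided where neighbouring genes lay more than 100 kb apart. No test was made, since each condition has 1 library and depth is unknown. The members and the gene lists were chosen with earlier results of these data known. The genes named are, by rule, those with the highest and lowest control percent of each type, those without a control peak, the 5 with the longest and the 5 with the shortest SNDX-50469 covered length among those with a control peak, the testis genes, the first and last gene of each subcluster and, of the other lists, the 3 with the highest and the 3 with the lowest kept share and those without a control peak. One gene that this rule picks from the other lists is not reported here. Other members were named after their values were seen, to account for all of them. Alternatives were the flank, limits on −log10 q and −log10 p, the division into subclusters, gene length and the genes included.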

Additional observations from a re-analysis of the deposited data

How the results depend on the processing

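Of 80 values recomputed under an alternative, 60 stayed within 1.5 times the count or within the 95% Wilson interval of the percent (over 55 windows, 20033 genes or bins of 1 kb, as a mark for the size of a move and not as an error), and 20 did not. All counts of histone genes with a peak were among the 60. For the histone gene windows, a flank of 5 kb gave 47.6% covered after SNDX-50469, a −log10 q of at least 5 gave 65.9% in control, and the control list trimmed to the length of the SNDX-50469 list gave 56.9% in control (62.5% after SNDX-50469) with a kept share of 88.8%. The kept share was 84.4% without the genes over 2 kb and 83.4% within 2.5 kb around the 5′ end, both chosen after seeing the data, and 97.8% in the latter windows with the trimmed control list, where other genes had 66.6% (31.0% untrimmed). For all protein-coding genes the kept share was 9.58% without chromosome 8, 32.5% over genes of at most 2 kb and 31.3% around the 5′ end. A −log10 q of at least 2 gave 55.5% of the subclusters covered in control, and for the gaps 7.55% in control and 0.821% after SNDX-50469. With at least 5 these were 47.2% and 30.0% (control and SNDX-50469) for the subclusters and 2.04% and 0.309% for the gaps. Limiting the control to peaks that reach the lowest −log10 p found after SNDX-50469 gave 54.5% for the subclusters and 6.30% for the gaps in control, and equal covered length 40.6% and 0.797%, the latter below the 1.70% of the gaps after SNDX-50469. Dividing at 50 or 250 kb gave the same 4 subclusters. No paired analysis was possible because there is only 1 library of either kind. A limit on what can be read is that the lists differ in their smallest −log10 p (2.68 in control, 3.93 after SNDX-50469), that depth is unknown, and that the part of these in each difference was not tested.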

Other observations

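Some stretches at the histone genes were uncovered in both lists with peaks on both sides. In subclusters 3 and 4 there were 5 such stretches within the windows. They measured 532 bp at H2BC12, 565 bp at H2BC13, 544 bp at H2AC14, 489 bp at H4C11 and 569 bp at H4C12. Subcluster 2 held more of them, from 177 bp at H2BC4 to 2270 bp at H2BC3, with others at H3C3, H2BC5, H2BC6, H3C6 and H4C6. Transcripts of these genes share sequence with other histone genes to different degrees. Of 51 histone genes with a transcript, 31 shared no 50 base stretch with another of them, and 4 shared at least 50% of theirs. H4C11 and H4C12 shared 92.1% and 92.6% of their 50 base stretches with each other, and H2AC13 and H2AC14 shared 63.5% and 66.3%. H2BC13 shared 11.9% and H2BC12 16.8%. Of the genes in subcluster 2 with uncovered stretches, H2BC4 shared 6.98%, H2BC5 5.43% and H2BC6 3.63%. H2BC3, H3C3 and H3C6 shared none, and H4C6 had no transcript to compare. Reads from shared stretches can match more than 1 gene, and how the authors treated them is not given in the sources used here. Coverage over the 4 genes that shared at least 50% is therefore uncertain. Histone genes of other chromosomes were not part of this comparison. Whether shared sequence has a part in the uncovered stretches was not tested.

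The promoters with no coverage in either list were those of H2AC1, H2BC1, H2BC3, H3C8 and H2BC10. H2BC3 and H3C3 lie side by side in subcluster 2, as do H3C8 and H2BC10, and these 4 genes had at most 24.7% of the window covered in control (H3C3) and at most 34.6% after SNDX-50469 (H3C8). The H3C3 and H3C8 promoters were the most alike of the H3 promoters, with the same base at 129 of 300 positions. The CCAAT box was found in the promoters of all of these genes, as in every H2A, H2B and H3 gene with a promoter. The octamer was found in those of H2AC1, H2BC1, H2BC3 and H2BC10, and in 9 of 11 H2A and 12 of 15 H2B genes in all.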
